A study of Caenorhabditis elegans with 2 samples.

Results

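The microRNA (miRNA) genes of Caenorhabditis elegans were taken as every gene of biotype miRNA in the Ensembl annotation of the WBcel235 assembly. There were 261 of them among 46926 annotated genes. Of the 261, 152 were intergenic, 97 lay within introns of protein-coding genes and 12 overlapped an exon of one. For each gene the strongest peak summit between 1 kb upstream of its 5′ end and its 3′ end was looked up in 3 peak lists. The lists came from chromatin immunoprecipitation sequencing (ChIP-seq) of CEH-9, a homeobox transcription factor. The single group consisted of 2 biological replicates of strain OP202, genotype unc-119(ed3) III; wgIs202, where wgIs202 is an integrated transgene whose CEH-9 protein ends in a fused GFP-FLAG tag. Both replicates were whole late embryos of mixed sex, taken 4.75 h after egg bleaching, and chromatin was sonicated and precipitated with an antibody against GFP. There was no second condition, the control libraries were not analysed here, and sequencing depth is unknown because the lists hold no read counts. Since whole embryos were used, no summit can be placed in a cell type.

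An miRNA is a short RNA cut from a hairpin by the enzymes Drosha and Dicer and carried by an Argonaute protein. It pairs with messenger RNAs mainly through its seed, bases 2 to 8 from the 5′ end, and lowers the output of those messages. Genes that share a seed form a family and often act redundantly. In the worm the mir-35 and mir-51 families are needed for embryonic development, and lin-4 and let-7 time the larval stages. Most miRNA genes are transcribed by RNA polymerase II, either from a promoter of their own or with a host gene. Summits were taken around the annotated hairpin, which can lie far from the start of the primary transcript.

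The mir-51 family held the strongest summit of any miRNA gene, so its mature products are shown, 5′ to 3′, with the seed in capitals (RefSeq, WBcel235). All 6 share the seed ACCCGUA, which is on the 5p arm in mir-51, mir-52 and mir-53 and on the 3p arm in mir-54, mir-55 and mir-56.
mir-51 5p arm: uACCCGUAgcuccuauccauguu
mir-52 5p arm: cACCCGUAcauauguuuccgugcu
mir-53 5p arm: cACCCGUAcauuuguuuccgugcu
mir-54 3p arm: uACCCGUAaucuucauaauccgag
mir-55 3p arm: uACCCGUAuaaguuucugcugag
mir-56 3p arm: uACCCGUAauguuuccgcugag

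The 4 genes of the mir-64 family lie in 1 intron and share 1 summit among the strongest 3000. Mature products of 3 of them are shown, with the shared seed AUGACAC in capitals.
mir-229 5p arm: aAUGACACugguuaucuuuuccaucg
mir-64 5p arm: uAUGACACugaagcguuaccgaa
mir-66 5p arm: cAUGACACugauuagggauguga

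Other miRNA genes with a strong summit are shown to set their seeds, in capitals, against those of the families. The seeds of mir-87 and lin-4 recur in other annotated miRNA genes, and those of mir-4936 and mir-55b do not.
mir-87 3p arm: gUGAGCAAaguuucaggugugc
lin-4 5p arm: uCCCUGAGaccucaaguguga
mir-4936 mature: uGCUUUGUggcuuugcuggua
mir-55b mature: uAACCGAUagguuucugccgag

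Only mir-51 and mir-52 had a strongest summit that was one of the authors' reproducible peaks, so the genomic sequence of both is shown on the strand of the gene, with the annotated hairpin gene in capitals. The mir-51 stretch holds the gene and the 200 bases before it, and the mir-52 stretch holds the gene with 100 bases on each side.
mir-51, chrIV:11026013-11026312, minus strand: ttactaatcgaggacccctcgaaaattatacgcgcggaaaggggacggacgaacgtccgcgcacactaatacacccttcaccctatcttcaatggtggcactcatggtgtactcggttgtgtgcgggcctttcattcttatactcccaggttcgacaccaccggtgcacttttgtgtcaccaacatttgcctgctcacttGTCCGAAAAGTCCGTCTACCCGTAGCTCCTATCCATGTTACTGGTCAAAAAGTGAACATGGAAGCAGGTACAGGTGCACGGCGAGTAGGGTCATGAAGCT
mir-52, chrIV:14033908-14034207, plus strand: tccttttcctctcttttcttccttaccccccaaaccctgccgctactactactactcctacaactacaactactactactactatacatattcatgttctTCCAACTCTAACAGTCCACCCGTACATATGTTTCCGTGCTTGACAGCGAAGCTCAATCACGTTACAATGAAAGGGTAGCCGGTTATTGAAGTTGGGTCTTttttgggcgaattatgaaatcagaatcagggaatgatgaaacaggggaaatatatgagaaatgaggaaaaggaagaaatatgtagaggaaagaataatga

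Of the 261 miRNA genes, 101 (38.7%) had a summit in the pooled list and 160 had none. Each relaxed list holds 30000 lines, a fixed number that includes background, so a summit alone says little and its rank by signal matters more. Signal is the authors' own value per peak, on a scale that differs between lists. It ran from 22.5 to 416 in the pooled list, from 9.33 to 166 in replicate 1 and from 16.5 to 269 in replicate 2. To set miRNA genes beside other classes, windows of one fixed form were used, 1 kb upstream to 100 bp inside the 5′ end. In these, 38.3% of miRNA genes had a summit, against 24.6% of all annotated genes and 30.2% of protein-coding genes. Piwi-interacting RNA genes, at 8.96%, make up much of the annotation, and all genes other than those came to 32.2%. The share was higher in tRNA genes (58.4%) and in small nucleolar RNA (snoRNA) genes (53.5%), and it was 26.4% in small nuclear RNA genes.

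Strong summits were fewer. Among the strongest 3000 of the pooled list, 19 miRNA genes (7.28%) had a summit, against 3.67% of all genes, 5.12% of genes other than Piwi-interacting RNA genes and 3.87% of protein-coding genes. The 19 genes rested on 16 separate summits. Strong here refers to rank alone. The −log10 q of these summits ran from 2.49 at mir-51 to 0.400 at mir-8201. It was 0.930 or lower at all but mir-51, mir-52 and mir-55b. Reproducible peaks, which coincide with the top of the pooled list down to a signal of 73.4, were found at 2 miRNA genes (0.766%), against 0.669% of all genes, 0.982% of genes other than Piwi-interacting RNA genes and 0.400% of protein-coding genes. The share of miRNA genes with a reproducible peak was thus close to that of all genes. It was 15.1% in tRNA genes and 11.0% in snoRNA genes. No test of these shares was made, since windows overlap and genes share summits.

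**Figure D1:**
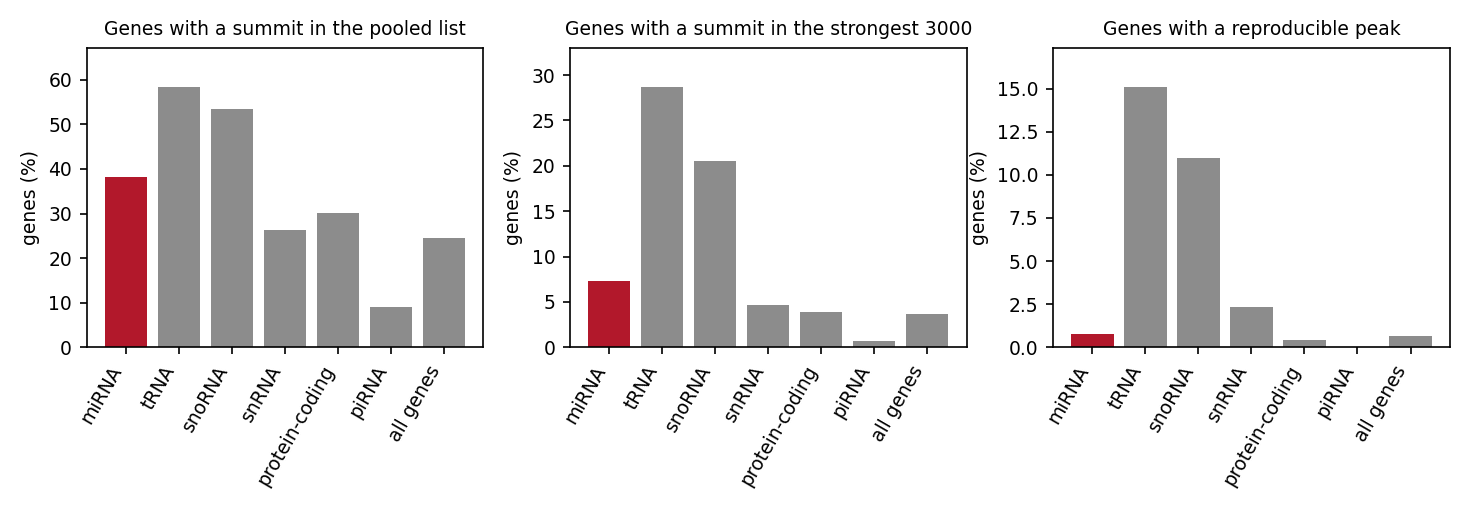
Share of genes of each annotated class (%) with a summit in the pooled list, with one among its strongest 3000 and with a reproducible peak, in windows of 1 kb upstream to 100 bp inside the 5′ end. The red bar is miRNA genes, at 38.3%, 7.28% and 0.766%, and the grey bars are the other classes and all annotated genes.

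The median rank of the strongest summit over the 101 genes was 11780. Ranks ran from 9, at mir-51, to 29956, at mir-242. In the stronger 15000 ranks lay 70 genes, and 31 lay in the weaker 15000. In the fixed windows the median was 11556 for miRNA genes, against 12680 for all genes and 12986 for protein-coding genes that had a summit. The 101 genes used 92 separate summits, because 14 genes shared 5 summits with a neighbouring miRNA gene. More than 1 pooled summit lay in the window of 32 genes, and all windows together held 123.

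mir-51 stood above all other miRNA genes in every list. It is an intergenic gene on the minus strand of chromosome IV at 11026013 to 11026112. Its pooled summit had rank 9 and signal 215, 89 bp upstream of the gene. In replicate 1 the summit had rank 7 and signal 84.0, 94 bp upstream. In replicate 2 it had rank 10 and signal 135, 47 bp upstream. The replicate summits lay 47 bp apart, and both ranks fell within the 10 strongest lines of their lists. The −log10 q of the pooled peak was 2.49, and its summit lay inside an annotated non-coding RNA gene, F36H1.17. The nearest protein-coding transcription start, that of hrg-5, was 3227 bp away. No tRNA, snoRNA or other small RNA gene of those classes lay within 100 bp of the summit.

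mir-52 had the other reproducible peak. This intergenic gene lies on the plus strand of chromosome IV at 14034008 to 14034107, and its pooled summit had rank 86 and signal 101, 84 bp inside the gene. In replicate 2 the summit had rank 115 and signal 64.2, 57 bp upstream. No summit of the replicate 1 list lay in the window. A replicate 1 summit of rank 26 and signal 61.2 did lie 43 bp past the 3′ end of the gene. Both replicates therefore had a strong summit within 142 bp of the 5′ end, on opposite sides of the gene, and the window kept 1 of them. The pooled −log10 q was 2.49, and the nearest protein-coding start, of Y37A1B.7, was 9688 bp away.

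The rest of the mir-51 family lay at lower ranks. mir-53, which shares a strand and a cluster with mir-51, had a pooled summit of rank 21350 at 527 bp upstream. Its summit had rank 4162 in replicate 1 and rank 17674 in replicate 2. mir-54, mir-55 and mir-56 form a cluster of 3 on the minus strand of chromosome X, inside an intron of F09A5.3 and opposite to it. Of these, mir-56 had a pooled summit of rank 7112, 52 bp inside the gene, and mir-54 and mir-55 had none. All 3 windows held the same replicate 1 summit of rank 3578 and the same replicate 2 summit of rank 4876. Those summits lay 373 bp and 2 bp upstream of mir-54, the gene at the 5′ end of the cluster. The family thus had a pooled summit at 4 of 6 genes, a replicate 1 summit at 5 and a replicate 2 summit at 6.

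A stronger summit lay just past the X-linked cluster. Its pooled rank was 293 (signal 68.8), and it was 157 bp past the 3′ end of mir-56, 293 bp past mir-55 and 462 bp past mir-54. The rule assigned it to mir-55b (F09A5.15 in RefSeq), an annotated miRNA gene antisense to mir-55, since it lay 296 bp upstream of that gene. In replicate 1 it had rank 253 and signal 28.3, and in replicate 2 rank 385 and signal 49.2. The replicate summits were 3 bp apart and their ranks were close. The −log10 q was 1.54. Which of the genes on either strand the summit belongs to cannot be told apart from its position.

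**Figure D2:**
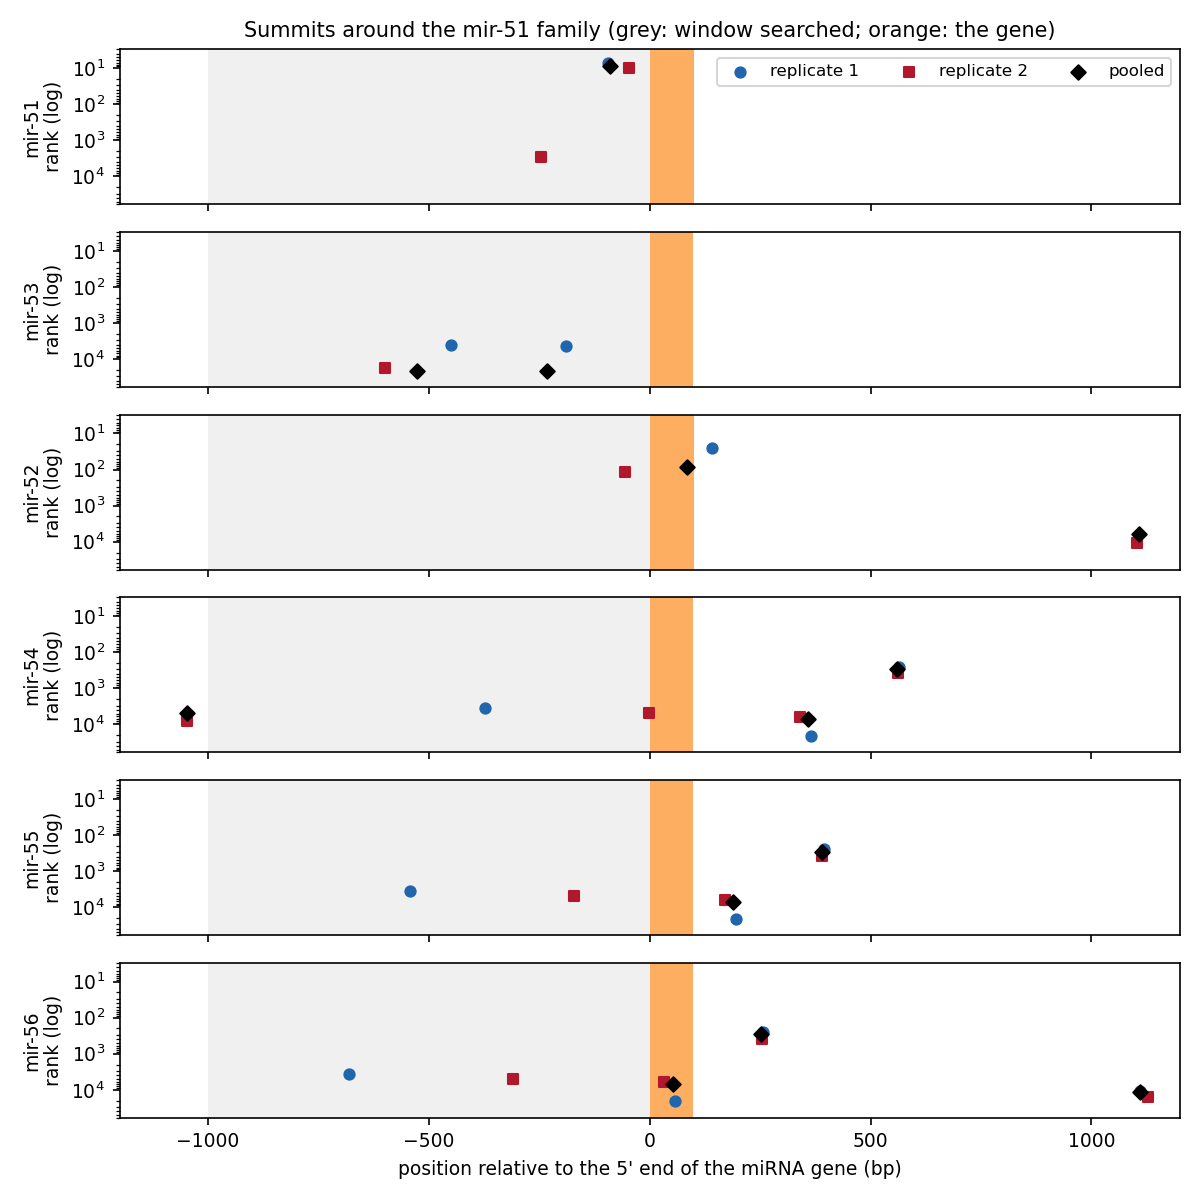
Summits on either side of the 5′ end of each mir-51 family gene, with position relative to the 5′ end (bp) across and rank within the list on a log axis, strongest at the top. Blue circles are replicate 1, red squares replicate 2 and black diamonds the pooled list, grey marks the upstream window and orange the gene. All 3 lists place a summit of rank 10 or better beside mir-51, and the 3 panels of the X-linked cluster show the summit of pooled rank 293 past the 3′ end.

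After these, mir-4936 had the strongest summit, with a −log10 q of 0.930. It is an intergenic gene on chromosome III at 3249151 to 3249260. Its pooled summit had rank 507 and signal 62.0, 78 bp inside the gene and 654 bp from the start of nduf-9. In replicate 2 the summit had rank 1361 and signal 39.7, 83 bp inside. In replicate 1 it had rank 447 and signal 25.7 but lay 417 bp upstream. The replicates thus both had a strong summit here, 500 bp apart.

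mir-87, which shares its seed UGAGCAA with mir-233 and mir-356a, lies in an intron of kup-1 on chromosome V. Its pooled summit had rank 793 and signal 56.8, 166 bp upstream. The rank was 818 in replicate 1 (signal 23.4) and 5971 in replicate 2 (signal 29.4), and the replicate summits were 1 bp apart. The other genes with that seed also had pooled summits, of rank 11780 at mir-233 and rank 12698 at mir-356a. mir-8194, an intergenic gene on chromosome V, had a pooled summit of rank 831 (signal 56.5) 282 bp upstream. Its rank was 1342 in replicate 1 (signal 21.6) and 3211 in replicate 2 (signal 33.7), 22 bp apart. For both genes the replicates placed the summit at nearly the same base, and replicate 1 ranked it higher.

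Some strong pooled summits rested mainly on 1 replicate. mir-2, in an intron of ppfr-1, had a pooled rank of 1329 (signal 52.3) 168 bp upstream. Its rank was 827 in replicate 2 (signal 43.3) and 13395 in replicate 1 (signal 13.0). lin-4, the founding miRNA and a repressor of lin-14, lies in an intron of F59G1.4 and had a pooled rank of 1753 (signal 49.7) 330 bp upstream. Its replicate 2 summit had rank 765 (signal 43.8) at the same base, and the replicate 1 list held no summit in the window. mir-5546, in an intron of arx-1, showed the reverse. Its pooled rank was 1587 (signal 50.7), with rank 211 in replicate 1 (signal 29.3) and rank 23864 in replicate 2 (signal 18.5). This summit lay within 100 bp of a small RNA gene, and the part of that gene in the signal was not tested. mir-8195, which overlaps an exon of tsr-1, did not rest mainly on 1 replicate. Its pooled rank was 1354 (signal 52.1), with rank 6136 in replicate 1 and rank 5931 in replicate 2.

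The mir-64 family shared 1 pooled summit of rank 1721 and signal 49.9. Its 4 genes, among them mir-229, mir-64 and mir-66 in that order, lie in an intron of gcn-1, a gene for a translational regulator, on chromosome III. The summit lay 86 bp upstream of mir-229, 482 bp upstream of mir-64 and 742 bp upstream of mir-66. The replicate 2 summit, 33 bp from it, had rank 1563 (signal 38.9), and the replicate 1 summit, 140 bp from it, had rank 10079 (signal 14.1). These 4 genes count as 4 of the 19 with a strong summit but rest on a single place. mir-63, on chromosome X, has the same seed and had no summit in any list.

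The values near the threshold of 3000 showed no step. Just inside it lay mir-8187 (rank 1967), mir-253 (1970), mir-74 (2117), mir-4929 (2499) and mir-8201 (2503). Just outside it lay mir-4814 (3133), mir-71 (3289), mir-1829b (4573), mir-80 (4714) and mir-8199 (4748). Signal was 45.0 at rank 3000 and 45.0 at rank 3001. The weakest reproducible peak had signal 73.4 and the next entry of the pooled list 73.3, and no miRNA gene had a summit between rank 86 and rank 293. mir-71, known for a role in lifespan, had rank 711 in replicate 1 and rank 10186 in replicate 2, so the side of the threshold depended on the list.

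Most strongest summits lay upstream of the gene. Counted by gene, 89 of the 101 were upstream and 12 inside, and the median position was -286 bp relative to the 5′ end. The window is mostly upstream, so this split follows in part from the rule. Of the 89 upstream, 26 lay within 200 bp, 27 farther off but within 500 bp and 36 beyond that, up to 1000 bp, with a median distance of 354 bp. Of the 19 genes with a strong summit, 9 had it within 200 bp upstream or inside the gene and 14 within 500 bp. These are counts of genes, which rest on 16 separate summits.

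**Figure D3:**
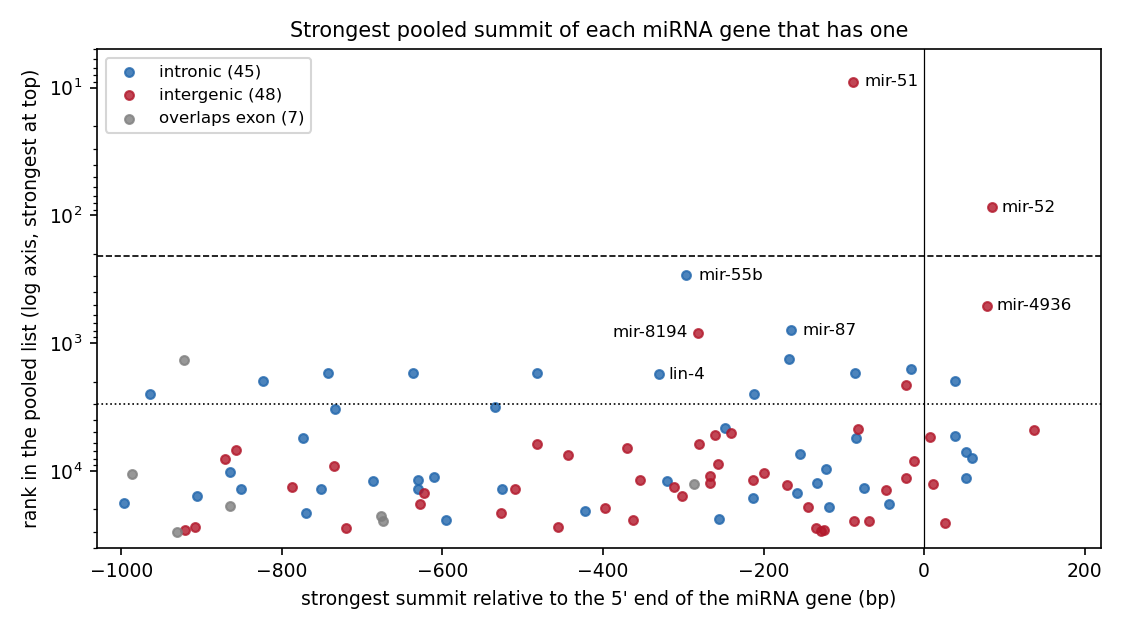
Rank of the strongest pooled summit (log axis, strongest at the top) against its position relative to the 5′ end (bp), 1 point for each miRNA gene with a summit. Colours give the genomic context, the dashed line is the rank of the weakest reproducible peak and the dotted line rank 3000. Only mir-51 and mir-52 lie above the dashed line, and let-7, whose summit is 1570 bp inside its gene model, falls outside the axis.

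Counting every pooled summit rather than the strongest, miRNA genes had 6.90 summits per 100 genes in the bin from -300 to -201 bp. They had 6.51 in each of the following 100 bp bins up to the 5′ end and 5.75 in the first 100 bp of the gene. Protein-coding genes had 3.10, 3.25, 3.14 and 3.67 in the same 4 bins. tRNA genes had 3.47 and 5.52, then 16.4 just upstream and 22.7 in the first 100 bp. The profile of miRNA genes was uneven away from the gene as well and reached 7.28 per 100 genes in the bin from -1400 to -1301 bp. The raised bins near the 5′ end were therefore no higher than the highest bin far from it.

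**Figure D4:**
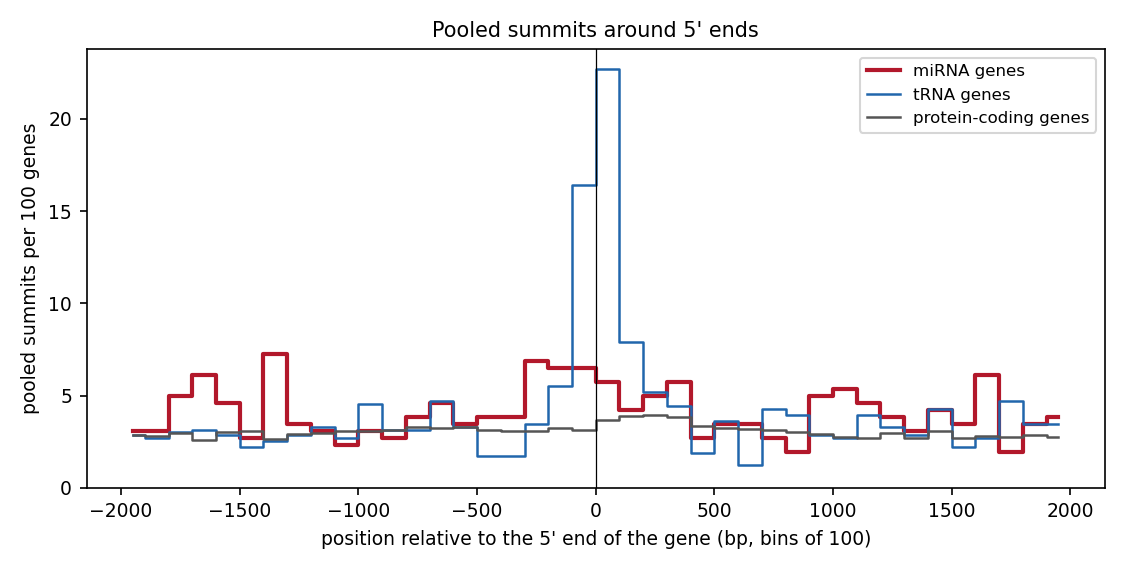
Pooled summits per 100 genes in bins of 100 bp, against position relative to the 5′ end of the gene (bp), for miRNA genes (red), tRNA genes (blue) and protein-coding genes (grey). miRNA genes show no single sharp bin, whereas tRNA genes reach 22.7 in the first 100 bp of the gene.

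The replicates gave similar numbers of miRNA genes but often not the same ones. Replicate 1 had a summit at 95 genes and replicate 2 at 101. In the fixed windows the shares were 36.4% in replicate 1 and 38.3% in replicate 2, against 26.1% of all genes in replicate 1 and 24.5% in replicate 2. Among protein-coding genes it was 30.9% in replicate 1 and 29.7% in replicate 2. Both lists had a summit at 59 genes, replicate 1 alone at 36, replicate 2 alone at 42 and neither at 124. In the fixed windows 22.2% of miRNA genes had a summit in both. This compares with 12.2% of all genes, 16.5% of genes other than Piwi-interacting RNA genes and 15.1% of protein-coding genes. By count, 95 miRNA genes had a replicate 1 summit there, 100 a replicate 2 summit and 58 both. Of all genes, 12261 had a replicate 1 summit, 11508 a replicate 2 summit and 5733 both, so the lists differed over all genes as well. All 3 lists had one at 55 genes, and no list had one at 122.

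Where both replicates had a summit, their places often differed. The median distance between the strongest summits was 238 bp, and 17 of the 59 genes had them within 100 bp. Of these 17, 10 were among the 19 genes with a strong pooled summit. Over the 59 genes the ranks in the 2 lists had a Spearman rho of 0.14, given as a description only, because several genes share summits. The strongest 3000 of replicate 1 held 13 miRNA genes and those of replicate 2 held 18, and 3 genes were in both. Shares over all genes were not taken at this cut, so whether 3 is few or many was not tested. The 3 were mir-51, mir-55b and mir-4936, and at mir-4936 the replicate summits lay 500 bp apart. The genes with the lowest worse rank of the pair were those 3, then mir-8194, mir-54 and mir-55.

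**Figure D5:**
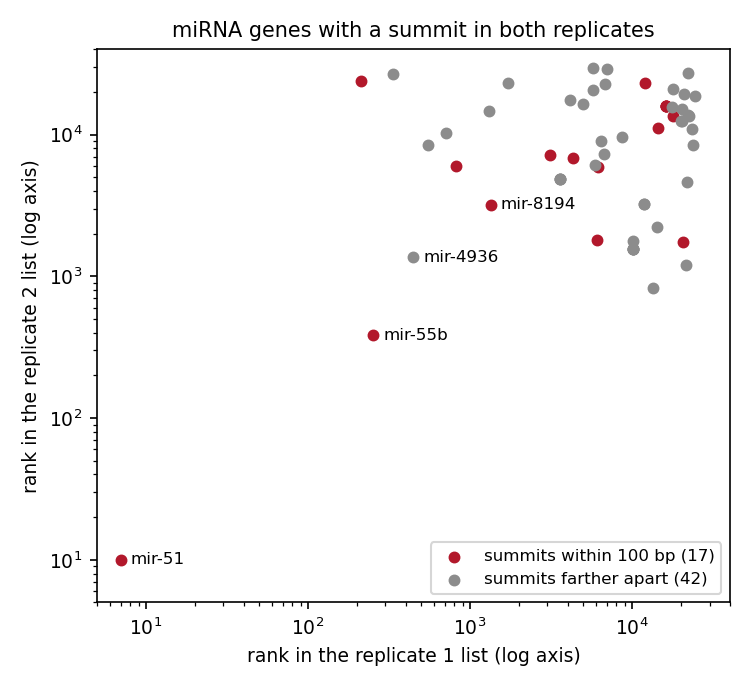
Rank of the strongest summit in the replicate 1 list and in the replicate 2 list, both on log axes, for the 59 miRNA genes with a summit in each. Red points have replicate summits within 100 bp (17 genes) and grey points farther apart (42 genes). mir-51, mir-55b and mir-4936 lie apart at low ranks in both lists, and the other points spread without a clear line.

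Intronic miRNA genes carried most of the strong summits. A pooled summit was present at 45 of 97 intronic genes (46.4%), against 48 of 152 intergenic genes (31.6%). The intronic genes used 39 separate summits and the intergenic genes 45. Over all annotated genes, in the fixed windows, 24.6% had a summit and 3.67% a strong one. Those shares were not split by context or strand, so whether these splits are particular to miRNA genes was not tested. Among the strongest 3000 were 13 intronic genes and 5 intergenic genes. Both reproducible peaks were intergenic. The median rank was 9699 for intronic genes and 12168 for intergenic genes with a summit. Of 12 genes that overlap an exon, 8 had a summit, 1 of them strong, with a median rank of 20651.

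Within introns, orientation marked a further split. Of 67 miRNA genes on the same strand as the host gene, 35 (52.2%) had a summit and 13 had a strong one, with a median rank of 5549. Of 30 on the opposite strand, 10 (33.3%) had a summit and none had a strong one, with a median rank of 13166. The best on the opposite strand was mir-8190, in hmr-1, at rank 5300. The 35 same-strand genes used 32 summits, and 4 of the 13 strong genes shared the gcn-1 summit. The 10 opposite-strand genes used 7 summits, since mir-35, mir-36, mir-37 and mir-38 share a summit of rank 13845. The strong summit counted for mir-55b, on the host's strand, also lay 157 bp past the 3′ end of mir-56, on the opposite strand. No test was made of the difference between strands. For a gene in an intron, binding that serves the host and binding that serves the miRNA cannot be told apart. The protein-coding start nearest to the summit was the host's own, and within 1 kb, for mir-8187 (477 bp, ech-7), mir-253 (344 bp, F44E7.5) and mir-8201 (625 bp, hil-2). It was the host's but farther off for mir-87 (1926 bp, kup-1), mir-55b (2933 bp, F09A5.3) and the gcn-1 summit (20421 bp). For the other strong intronic genes it was not the host's. These were mir-2 (13966 bp, dyf-5), mir-5546 (327 bp, Y71F9AL.25), lin-4 (2628 bp, tsp-18) and mir-4929 (1434 bp, pqn-27).

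The share of miRNA genes with a summit varied among chromosomes. Shares of all annotated genes were not taken by chromosome, so whether this is particular to miRNA genes was not tested. It was highest on chromosome III, with 17 of 27 genes (63.0%) on 14 separate summits. It was lowest on chromosome IV, with 14 of 50 (28.0%), and on chromosome X, with 21 of 74 (28.4%). Chromosome IV nevertheless held mir-51 and mir-52. Chromosome X holds a run of 11 miRNA genes on one strand, from mir-4807 to mir-4921, that had no pooled summit at all. Clusters were defined as runs on 1 strand with under 5 kb between neighbours. In them 28 of 69 genes (40.6%) had a summit, against 73 of 192 genes outside clusters (38.0%). The 28 genes used only 20 separate summits and the 73 used 72, so shared summits enter this comparison. Over all annotated genes, in the fixed windows, the share was 24.6%. Of the 24 clusters, 16 had a summit at 1 gene or more.

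Conserved families with known functions were described next, from a list of 65 genes. Of these, 33 (50.8%) had a summit and 9 a strong one, against 68 of 196 (34.7%) and 10 for the other miRNA genes. Over all annotated genes, in the fixed windows, 24.6% had a summit and 3.67% a strong one. Without Piwi-interacting RNA genes these shares were 32.2% and 5.12%. The 33 rested on 26 separate summits and the 68 on 66, and 4 of the 9 strong genes shared the gcn-1 summit, so shared summits enter this difference. The let-7 family, which times larval transitions, had a pooled summit at 3 of 7 genes and none was strong. mir-241 was the best of them at rank 5191, with rank 10076 in replicate 1 and rank 1787 in replicate 2. mir-84 had pooled rank 19035 and let-7 pooled rank 29332, near the end of the list. mir-48 had a summit in replicate 1 alone, of rank 22539.

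The mir-35 family, whose genes act in the embryo, had summits at low strength. mir-35, mir-36, mir-37 and mir-38 shared 1 pooled summit of rank 13845, which was 526 bp upstream of mir-35. It had rank 16217 in replicate 1 and 15921 in replicate 2, so the lists placed it alike and far from the strongest. mir-42, from another cluster on the same chromosome, had none in any list. The mir-58 family, abundant in worm tissues, had a summit at 3 of the 8 genes listed for it, which do not all share a seed. The seed GAGAUCA, which mir-58c outside the list also carries, had a summit at 2 of 6 genes. mir-80 had pooled rank 4714, with rank 5872 in replicate 1 and 6086 in replicate 2. mir-58a had pooled rank 5549, with rank 550 in replicate 1 and 8485 in replicate 2, and mir-81 had pooled rank 7907.

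Tissue-linked miRNA genes showed no strong summit in their windows. mir-1, of muscle, had pooled rank 6587 with rank 2401 in replicate 2 and none in replicate 1. mir-228, of glia, had pooled rank 6153 and mir-273 had pooled rank 7350. mir-60 had rank 13300. lsy-6, which sets left-right asymmetry of a pair of taste neurons, had no summit in any list, nor had mir-34, mir-240, mir-786 and mir-791. mir-124, of sensory neurons, had no pooled summit in its window. A reproducible peak of rank 145 (signal 83.6) did lie 295 bp past its 3′ end, with rank 1059 in replicate 1 and 360 in replicate 2. A window of 1 kb centred on the 5′ end would count this gene, and the number with a reproducible peak would then be 3.

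Grouped by seed, 46 seeds were shared by 2 or more of the 260 miRNA genes with a RefSeq mature product, and they covered 109 genes. The seed ACCCGUA of the mir-51 family had summits at 4 of 6 genes, 2 of them strong. AUGACAC had summits at 4 of 5 genes, all 4 strong and from 1 place. GGCAAGA had strong summits at mir-8187 and mir-74 and none at the other 4 genes with that seed. CACCGGG of the mir-35 family had 4 of 8 and GAGGUAG of the let-7 family 3 of 5, with none strong. Members of a seed group thus ranged from the top of the list to no summit. These counts are of few genes, beside 24.6% of all annotated genes with a summit and 3.67% with a strong one in the fixed windows.

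Homeodomain proteins commonly bind sites with a TAAT core, so TAATTA and TAATTG were counted on both strands in the 151 bp around each summit. Of 92 separate miRNA gene summits, 13 (14.1%) held either core, against 13.7% of the other 29908 pooled summits. TAATTA was in 5.43%, against 5.14%, and TAATTG in 8.70%, against 9.27%. Among the strongest 3000, 1 of 16 miRNA gene summits held a core (6.25%), against 9.75% of the other 2984. It was the summit at mir-5546. These shares were close to the background of the list. In promoters of 300 bp, from 250 before to 50 after the 5′ end, either core was in 26.1% of miRNA genes, against 37.5% of all genes and 35.0% of protein-coding genes. Median GC content of these promoters was 39.3%, 33.0% and 34.3% for the same classes in that order, and the part of base composition in the counts was not tested.

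A second word, GTTCGA, was counted because it lies in the B box consensus of RNA polymerase III genes, the class to which tRNA genes belong, and these had many reproducible peaks. It was chosen with those results known. On either strand it was in 7 of 92 miRNA gene windows (7.61%), against 5.86% of the other pooled summits. The longer GTTCGANNC was in 4 (4.35%), against 1.90%. Among the strongest 3000, GTTCGA was in 3 of 16 windows (18.8%), against 8.48%, and GTTCGANNC in 2 (12.5%), against 4.96%. The 3 were mir-51, mir-55b and mir-4936, the 3 genes that ranked in the strongest 3000 of both replicates. At mir-4936, however, the strongest replicate 1 summit lay outside the window that holds the word. With 16 windows these shares rest on few genes, and a match is a run of letters and not a measured site. In 300 bp promoters the word was in 11.5% of miRNA genes, against 10.3% of all genes.

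In the mir-51 sequence printed above, GTTCGA is in lower case and lies 51 bp upstream of the gene and 38 bp from the summit, on the strand of the gene, and extends to GTTCGANNC. At mir-4936 it lay 9 bp past the 3′ end and 40 bp from the summit and also extends. At mir-55b it was on the opposite strand, 14 bp from the summit, and reads TCGAAC on the strand of the gene. The 151 bp windows of these 2 pooled summits are shown, with the word in capitals. At mir-55b the strongest summits of both replicates lay in the window. At mir-4936 only that of replicate 2 did, and that of replicate 1 lay 495 bp from the pooled summit.
mir-4936, chrIII:3249154-3249304, plus strand: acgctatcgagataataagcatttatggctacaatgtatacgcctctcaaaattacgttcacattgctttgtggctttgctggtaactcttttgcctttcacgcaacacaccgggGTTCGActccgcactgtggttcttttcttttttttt
mir-55b, chrX:13144459-13144609, plus strand: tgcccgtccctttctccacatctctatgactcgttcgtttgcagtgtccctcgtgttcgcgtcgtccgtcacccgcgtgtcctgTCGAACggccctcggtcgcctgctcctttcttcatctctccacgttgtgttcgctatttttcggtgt
The word was also in the windows of mir-4814, mir-80, mir-8207 and mir-261. At mir-8207, of pooled rank 15759, the summit lay inside a tRNA gene. In all, 5 miRNA genes had their strongest summit within 100 bp of a tRNA, snoRNA or similar small RNA gene. These were mir-5546, mir-77, mir-8207, mir-239a and mir-239b. Of the 12 miRNA genes of best pooled rank, only mir-5546, at rank 1587, was among them.

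Protein-coding genes of the miRNA pathway were looked up in the fixed windows. Of 21 genes found, 10 (47.6%) had a pooled summit, 2 a strong one and 1 a reproducible peak, with a median rank of 11003. Over all protein-coding genes in the same windows the shares were 30.2%, 3.87% and 0.400%, with a median rank of 12986. The pathway counts are of few genes and were not tested. The reproducible peak was at vig-1, whose product associates with the RNA-induced silencing complex, at rank 198 (signal 74.6) and 408 bp upstream. It had rank 2119 in replicate 1 (signal 20.0) and 371 in replicate 2 (signal 49.5). drsh-1, which encodes Drosha, had rank 615 (signal 59.8) 646 bp upstream. Its rank was 2830 in replicate 1 (signal 18.9) and 2408 in replicate 2 (signal 35.9), so both lists held it in their strongest 3000.

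The remaining pathway genes were weaker or without a summit. The Argonaute genes alg-5 and alg-2 had pooled ranks of 9990 and 22046, and alg-1 had no summit in any list. ain-1, a partner of Argonaute in silencing, had rank 12016. lin-28, which blocks let-7 processing, had rank 24590. pash-1, the partner of Drosha, and dcr-1, which encodes Dicer, had no pooled summit. Among 11 genes listed here as miRNA targets, 4 (36.4%) had a summit and none was strong, against 30.2% with a summit and 3.87% with a strong one over all protein-coding genes. The list includes lin-29 and lin-46, and direct targeting of its genes was not tested. The share of target genes with a summit was near that background. mef-2, a target of mir-1, had rank 3815, with rank 4505 in replicate 1 and 11488 in replicate 2. lin-14, the main target of lin-4, had rank 6606, and lin-41, a target of let-7, had rank 19226.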

How the data were processed

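Peak lists of 2 replicates of 1 group were used. For every peak the authors deposited a signal, a −log10 q and a summit offset in bases, in relaxed lists for each replicate and for both pooled, and in a list of reproducible peaks, per the labels and the notes deposited with the files. Signal differs in scale between lists and was used only as rank within a list. Each relaxed list was made from alignments and a control, and the reproducible list by the irreproducible discovery rate. No aligner or peak caller is named: both, and their settings, are not given in the sources read. Depth is unknown.

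Genes came from Ensembl release 115, on the assembly of ce11, and mature and genomic sequences from RefSeq on the same assembly. All 261 miRNA genes matched RefSeq by WormBase identifier. The ce10 lists were not used, and 1 sequence is not reported here. The pathway names ntl-1 and the target name nhl-25 had no match, which left 21 and 11 genes. Members, gene lists and motifs were chosen with earlier results of these data known.

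Named genes were those with a reproducible peak, the 12 of best pooled rank, the 5 on each side of the reproducible threshold and of rank 3000, the 6 with the lowest worse replicate rank, and listed families. mir-8190, mir-242, mir-63 and the genes named by a seed, motif or small RNA gene were chosen for naming once their values had been seen. No test was made, since there is 1 group and no second condition. The lookup was tested on simulated peaks. Alternatives covered window, replicate, shared summits, small RNA genes and motif width. Scripts ran in Python 3.11.15 with scipy 1.17.1 for the rank correlation, numpy 2.4.6, and matplotlib 3.10.9 for plots.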

Additional observations from a re-analysis of the deposited data

How the results depend on the processing

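Of 37 alternative values over 7 results, 29 stayed within 1.5 times the reported count or within the 95% interval of the reported median, and 8 moved beyond. The median position of -286 bp became -135 bp with 500 bp upstream and -857 bp with 2 kb upstream, as the window itself changes. The number of genes with a summit in both replicates, 59, was 33 with 500 bp upstream, 110 with 2 kb upstream, 17 where the summits had to lie within 100 bp and 3 in the strongest 3000 lines of each replicate. Windows with TAATTA or TAATTG fell to 8 at 50 bp to each side, against 13 at 75 bp. With each replicate alone, genes with a summit ranged from 95 to 101, those with a summit as highly ranked as the reproducible peaks from 1 to 2, those among the strongest 3000 from 13 to 18, the median rank from 11204 to 11992 and the median position from -373 to -368 bp. The lower value of 1 gene came from replicate 1, where the summit at mir-52 lies past the 3′ end. Leaving out summits at small RNA genes gave 96 genes with a summit and 18 strong ones. No paired analysis was possible because there is 1 group and no second condition. Membership in lists of fixed length includes background, the controls were not analysed here, and read depth is unknown, so weak ranks cannot be told from noise.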
